A study of Mus musculus with 28 samples.

Results

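Dense clusters of distal regions are runs of short genomic regions that lie close together and away from annotated transcription start sites. A region counted as distal where it overlapped none of 38087 windows of 5 kb placed around start sites by the authors. Distal regions were taken as a cluster where at least 5 of them followed each other on a chromosome with gaps of at most 3 kb, and members had to be narrower than 800 bp. The rule used positions only, with no coverage value. It left 1672 member regions in 322 clusters, of 127646 regions in all, 101688 of them distal. The clusters held 5 regions in 255 cases, 6 in 55, 7 in 8 and 8 in 4, and 21 wide regions inside clusters were left out. The median member was 209 bp wide (range 112 to 793 bp) and the median cluster spanned 5482 bp (942 to 15069 bp).

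The series measured histone acetylation by CUT&Tag, in which a transposase tethered to an antibody cuts and tags the DNA around a chromatin mark. All samples were mouse embryonic stem cells (mESCs) of the genotype FOXD3-iKO, grown in L2i medium, with a labelled treatment time of 24 h. H3K27ac was measured in asynchronous cells given 4HT or EtOH (2 samples each), names that usually stand for 4-hydroxytamoxifen and its solvent ethanol. H2BK120ac was measured in 3 samples of each of 4 groups coded TD, ED, TT and ET, codes that the labels leave unexplained. The series title speaks of FOXD3 depletion, which chromatin coverage cannot check. Samples sorted by phase (12) have no part in what follows. The deposited tables hold 1 column per group, merged over its samples, so there is no replicate spread, no test was possible, and a difference below is a difference between merged libraries. More acetylation per cell and more cells with acetylation cannot be told apart in such bulk samples. Intervals beside ratios and shares are 95% Clopper-Pearson limits and cover counting error only. For ratios they take the rounded pile-ups of the pair of columns, summed over members for a cluster, as fragment counts. Neighbouring members can share fragments, so the limits for clusters are approximate and can be too narrow.

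Enhancers are stretches of DNA away from promoters that bind transcription factors and raise transcription of genes on the same chromosome. H3K27ac, acetylation of a lysine in the tail of histone H3, and H2BK120ac, acetylation of a lysine near the end of histone H2B, are both found at active enhancers and promoters. In embryonic stem cells, groups of neighbouring enhancers with high acetylation, often called super-enhancers, lie near genes of cell identity. FOXD3 is a forkhead transcription factor of the early embryo and of pluripotent cells.

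The cluster with the longest span, chr7:3192077-3207145 on GRCm38.p6, was among the 4 with 8 members and held the region with the highest H3K27ac of all members. Its nearest start of a protein-coding gene was that of AU018091, 30408 bp from the middle of the cluster. The hairpin of Mir290a began 11481 bp beyond its end, and the RefSeq table places 9 microRNA genes within 20 kb of that end, a neighbourhood that was looked up after the values were seen. These microRNAs are abundant in mESCs and promote their cell cycle. The 6 plus-strand 3p sequences that the table holds there are shown from RefSeq, 5′ to 3′, with the seed (bases 2 to 8) in capitals, because the cluster that holds the highest H3K27ac lies upstream of them.
mmu-miR-290a-3p: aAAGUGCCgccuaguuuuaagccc
mmu-miR-291a-3p: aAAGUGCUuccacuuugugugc
mmu-miR-291b-3p: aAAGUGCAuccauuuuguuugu
mmu-miR-293-3p: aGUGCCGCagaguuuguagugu
mmu-miR-294-3p: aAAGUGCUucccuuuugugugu
mmu-miR-295-3p: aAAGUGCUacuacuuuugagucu
Among those shown, the seed AAGUGCU was shared by miR-291a-3p, miR-294-3p and miR-295-3p. The seed of miR-290a-3p was AAGUGCC, that of miR-291b-3p AAGUGCA and that of miR-293-3p GUGCCGC.

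Distal position here rests on the authors' windows, and it did not hold for every annotated start. Of the members, 34 overlapped a RefSeq promoter, taken as 300 bp of which 250 bp lie before the start. These promoters belonged to 32 genes, 13 of them protein-coding. Where such a member was well covered for H2BK120ac (defined below) and the gene protein-coding, the gene was Tet1, Kat2b or Gse1. Tet1 encodes an enzyme that oxidises methylcytosine in DNA, Kat2b a lysine acetyltransferase, and Gse1 a subunit of a histone deacetylase complex. The 250 bases before the start are shown from RefSeq (GRCm38.p6), read 5′ to 3′ along the gene's strand, with the bases inside the member in capitals. They are chr10:62887325-62887574 on the minus strand for Tet1, chr17:53583876-53584125 on the plus strand for Kat2b and chr8:120537159-120537408 on the plus strand for Gse1.
Tet1: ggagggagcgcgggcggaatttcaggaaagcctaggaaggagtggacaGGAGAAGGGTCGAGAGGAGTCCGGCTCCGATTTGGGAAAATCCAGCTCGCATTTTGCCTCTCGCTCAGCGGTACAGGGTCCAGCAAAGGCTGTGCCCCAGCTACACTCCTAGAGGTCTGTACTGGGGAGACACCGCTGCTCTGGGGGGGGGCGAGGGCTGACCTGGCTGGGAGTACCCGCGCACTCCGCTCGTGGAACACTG
Kat2b: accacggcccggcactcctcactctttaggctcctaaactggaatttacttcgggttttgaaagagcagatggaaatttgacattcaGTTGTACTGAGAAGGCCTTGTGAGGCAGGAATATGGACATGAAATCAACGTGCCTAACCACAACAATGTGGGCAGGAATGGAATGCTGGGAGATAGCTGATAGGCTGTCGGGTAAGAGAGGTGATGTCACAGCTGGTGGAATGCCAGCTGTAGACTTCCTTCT
Gse1: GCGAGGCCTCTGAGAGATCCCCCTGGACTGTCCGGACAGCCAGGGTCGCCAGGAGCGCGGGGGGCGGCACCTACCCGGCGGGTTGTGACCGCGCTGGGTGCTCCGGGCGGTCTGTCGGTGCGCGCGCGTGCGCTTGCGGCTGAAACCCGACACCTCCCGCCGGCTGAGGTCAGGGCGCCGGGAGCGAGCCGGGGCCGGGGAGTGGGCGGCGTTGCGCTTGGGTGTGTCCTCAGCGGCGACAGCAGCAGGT
Bases of these windows that are G or C made up 62.8% for Tet1, 48.4% for Kat2b and 74.8% for Gse1, against a median of 52.4% over all promoters in the table. On either strand none of the windows held the forkhead core TGTTTAC, found in 3.17% of 32851 promoter windows of the same length. Nor did they hold the octamer ATGCAAAT (1.60% of the windows), the AP-1 motif TGANTCA (6.75%) or the CACCC box CCACACCC (3.20%).

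Depth limits what single regions can show. The most frequent value in a column was taken as a single fragment, which is 0.207 CPM in 4HT, 0.165 in EtOH, 0.412 in TD, 0.445 in ED, 0.415 in TT and 0.445 in ET. Divided into 1e6, these values give a depth, in units of 1e6 fragments, of 4.82 for 4HT and 6.08 for EtOH, and of 2.25 to 2.43 for the H2BK120ac groups. The H2BK120ac depths are less certain, since values down to 0.25 of the value taken as a single fragment occur there. At the starts of 8 mESC marker genes, H3K27ac had a median of 2.08 CPM in 4HT and 2.27 CPM in EtOH. At 8 feeder fibroblast markers the medians were 0.104 and 0.169 CPM, and 4 of them in 4HT and 1 in EtOH were at 0. The medians over 6 primitive endoderm and 6 trophectoderm markers were at most 0.221 CPM for H3K27ac in either group. Esrrb, Gata4 and Pdgfra, which have no region near their start, entered these medians as 0. H2BK120ac set the lists apart less in ED, with medians of 0.794 CPM for mESC and 0.704 CPM for trophectoderm markers. In the same order they were 1.40 and 0.360 CPM in TD, 1.87 and 0.391 in TT, and 0.879 and 0.471 in ET. The other lists had lower medians in each of these groups.

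Clustered regions carried more of both marks than other distal regions. The mean H3K27ac value per member was 1.14 CPM in 4HT and 0.908 CPM in EtOH, against 0.396 and 0.345 CPM at the 96399 distal regions under 800 bp outside clusters. For H2BK120ac the members averaged 0.772 CPM in TD, 0.762 in ED, 0.703 in TT and 0.805 in ET, against 0.362, 0.406, 0.346 and 0.429 CPM outside clusters in the same order of groups. Coverage was also more frequent. In 4HT, 82.5% of members had coverage (95% limits 80.6 to 84.3%) against 63.9% of the regions outside clusters, and in EtOH the shares were 87.4% and 73.2%. In TD, 65.6% of members were covered against 46.1% outside, and in ED 77.5% against 57.8%. In TT the shares were 67.0% and 46.8%, and in ET 77.0% and 57.9%. Members were higher than other distal regions in each of the width classes compared, in all 6 groups.

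The level rose with the number of regions in a run up to 5 in all 6 groups and was not steady beyond that. In 4HT, H3K27ac averaged 0.267 CPM at the 50844 regions with no neighbour within 3 kb, 0.436 in runs of 2, 0.642 in runs of 3, 0.918 in runs of 4 and 1.07 in runs of 5. Just inside the limit lay 1265 regions in runs of 5 and just outside it 4486 in runs of 4, with EtOH means of 0.858 and 0.744 CPM. For H2BK120ac the means in runs of 5 and runs of 4 were 0.771 and 0.574 CPM in TD, and 0.744 and 0.673 CPM in ED. They were 0.703 and 0.531 CPM in TT, and 0.779 and 0.721 CPM in ET. In TD and TT the step at the limit was larger than the steps below it. The longest runs rest on few regions, 56 in runs of 7 and 32 in runs of 8, and the cluster beside Mir290a is among the latter.

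**Figure D1:**
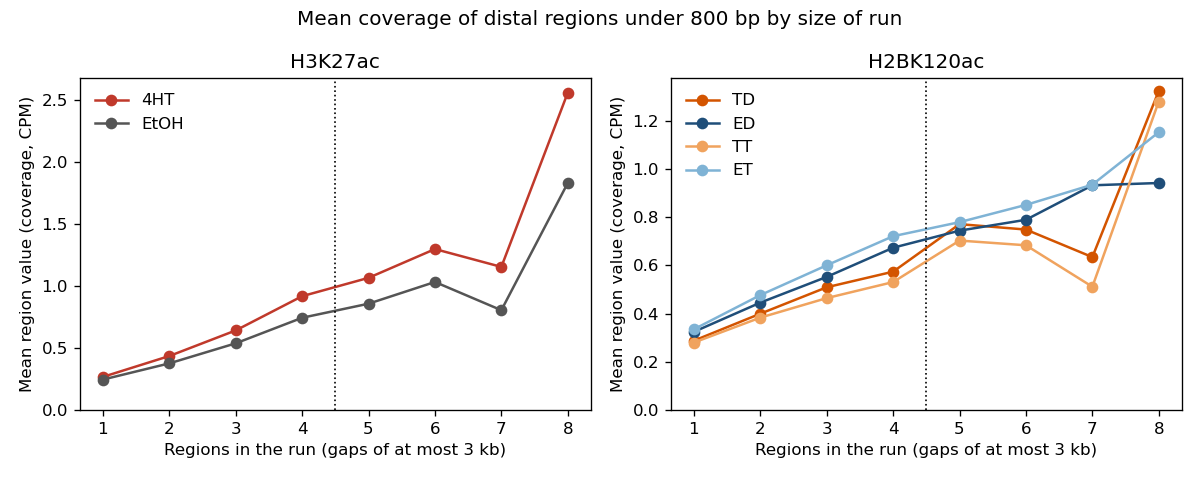
Mean coverage (CPM, vertical axes) of distal regions under 800 bp by the number of regions in their run (horizontal axes), for H3K27ac in 4HT and EtOH (left) and H2BK120ac in TD, ED, TT and ET (right). Each point is the mean over regions of 1 merged column, the dotted line marks the limit of 5 regions, and every group rises from runs of 1 to runs of 5, with 1.07 CPM in 4HT and 0.858 CPM in EtOH at 5.

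Most members held little signal, and a minority held most of it. The 167 highest members made up 51.6% of the summed H3K27ac value in 4HT and 48.3% in EtOH. For H2BK120ac the same number made up 56.4% in TD, 38.6% in ED, 50.8% in TT and 40.0% in ET. The value of a region followed the cluster it lay in, with an intraclass correlation of log2 values of 0.68 in 4HT, 0.67 in EtOH, 0.55 in TD, 0.45 in ED, 0.52 in TT and 0.51 in ET. Neighbouring members can share fragments, which adds to this likeness. Well covered is used below for a region whose pile-up averaged at least 5 fragments over the groups of its table (0.93 CPM for H3K27ac and 2.15 CPM for H2BK120ac). By this measure 479 members in 147 clusters were well covered for H3K27ac and 111 members in 54 clusters for H2BK120ac. Of these, 96 were well covered for both marks, 383 for H3K27ac only and 15 for H2BK120ac only, and 1178 members were well covered for neither.

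In the cluster beside Mir290a, the H3K27ac value averaged 7.29 CPM over the 8 members in 4HT, against 4.92 CPM in EtOH. The ratio was 1.48 (1.24 to 1.77). Most of it lay in the last 3 regions. At chr7:3201151-3201749 H3K27ac reached 22.8 CPM in 4HT, the highest value of any member, against 14.7 CPM in EtOH (ratio 1.55, 1.17 to 2.08). H2BK120ac at the same region was 8.05 CPM in TD against 1.96 CPM in ED, and 6.98 CPM in TT against 3.28 CPM in ET. The last region, chr7:3206407-3207145, had 17.5 CPM in 4HT against 12.02 CPM in EtOH, 9.75 CPM in TD against 4.56 CPM in ED, and 8.985 CPM in TT against 5.24 CPM in ET. The region between them, chr7:3203931-3204403, went the other way in TD against ED, with 1.04 CPM in TD and 1.93 CPM in ED, a difference well inside its counting limits. It had 9.83 CPM of H3K27ac in 4HT and 5.11 CPM in EtOH. Over the whole cluster H2BK120ac was 2.73 CPM in TD against 1.59 CPM in ED (ratio 1.72, 1.06 to 2.76), but only 3 of its 8 members were higher in TD.

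**Figure D2:**
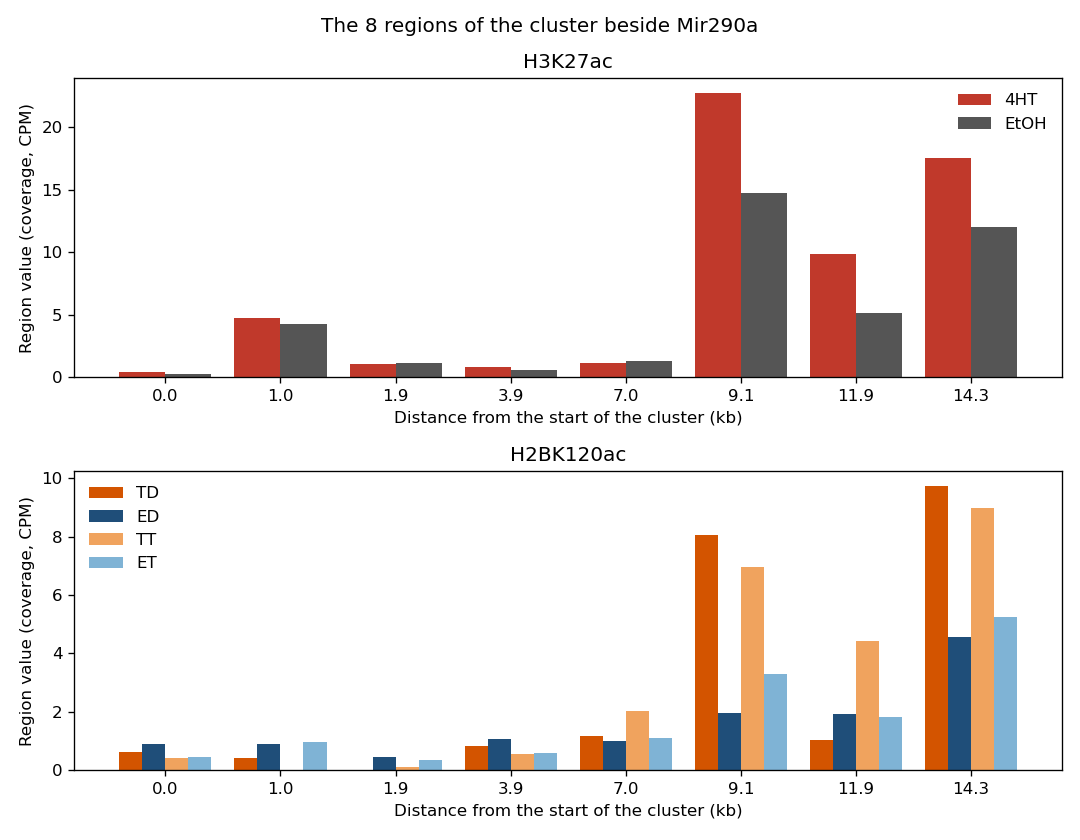
Coverage (CPM, vertical axes) of the 8 regions of the cluster beside Mir290a, placed by their distance from the start of the cluster in kb (horizontal axes), for H3K27ac (top) and H2BK120ac (bottom). Each bar is the value of 1 merged column; the last 3 regions hold most of the signal, with 22.8 CPM of H3K27ac in 4HT against 14.7 CPM in EtOH at the highest.

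H3K27ac was somewhat higher in 4HT than in EtOH at most clustered regions, and to the same degree as at all regions. Over the 479 well-covered members the median log2 fold was 0.35, on the scale of log2(value + 0.2), beside 0.33 over all 13807 well-covered regions. Being at least 2-fold higher in 4HT was found for 49 members (10.2%), against a background of 7.68% of all well-covered regions, and being at least 2-fold lower for 7 (1.46%), against 0.739%. Because the columns differ in depth and in overall level, the folds were also centred on the median of all regions, which lowers every H3K27ac fold by 0.33. After centring, 19 members stayed past the limit in the higher direction and 18 passed it in the lower one. Over all 13807 well-covered regions these counts were 331 and 361. The shares of members past the limit are thus near the background, and the direction of the count rests on the scaling.

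Among the 90 clusters whose summed pile-up averaged at least 30 fragments, the log2 fold of the mean member value in 4HT against EtOH ran from -0.42 to 0.90, with a median of 0.33. It was above 0 in 75 clusters and below 0 in 15. The counting interval of the ratio lay above 1 in 31 clusters and below 1 in 0. This split also rests on the scaling. Relative to the shift of 0.33 over all regions, 45 clusters were above and 45 below, with 4 intervals wholly above the shift and 3 wholly below it. Without centring, every member was higher in 4HT in 20 clusters and lower in 2.

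The highest fold belonged to a cluster of 8 regions overlapping Gse1, chr8:120528186-120539174, whose nearest gene by the middle of the cluster is Gins2, 55395 bp away. Gins2 encodes a subunit of the GINS complex of DNA replication. H3K27ac averaged 1.77 CPM in 4HT against 0.855 CPM in EtOH (ratio 2.08, 1.37 to 3.07), with 8 of 8 members higher. The marks were highest at different members. H3K27ac was highest at chr8:120531086-120531223, with 4.85 CPM in 4HT and 1.88 CPM in EtOH, where H2BK120ac was 0.823 CPM in TD and 1.10 CPM in ED. H2BK120ac was highest at the member that holds the Gse1 promoter shown above, with 4.35 CPM in TD, 0.782 in ED, 3.78 in TT and 0.473 in ET. H3K27ac there was only 0.779 CPM in 4HT and 0.303 CPM in EtOH.

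A cluster 83531 bp from the start of Tbx3, a T-box factor of naive pluripotency, came next. It had 2.24 CPM in 4HT against 1.12 CPM in EtOH (ratio 1.997, 1.28 to 3.17), with 5 of 5 members higher. Its best-covered member, chr5:119588924-119589098, had 4.77 CPM in 4HT against 1.58 CPM in EtOH. The same member had 3.95 CPM of H2BK120ac in TD, 2.50 in ED, 9.23 in TT and 1.13 in ET. The cluster nearest to Lrrc74a followed with 4.17 CPM in 4HT against 2.28 CPM in EtOH (ratio 1.83, 1.33 to 2.52). The cluster overlapping Manbal had 1.77 CPM in 4HT against 0.923 CPM in EtOH (ratio 1.92, 1.17 to 3.23).

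At the lower end, no counting interval stayed below 1. The cluster 16153 bp from Terf2, which encodes a telomere-binding protein, had 1.32 CPM in 4HT against 1.83 CPM in EtOH (ratio 0.721, 0.451 to 1.13), with 5 of 5 members lower. The cluster near Zfp93, a zinc finger gene, had 0.949 CPM in 4HT against 1.31 CPM in EtOH (ratio 0.724, 0.414 to 1.24), also with 5 of 5 lower. Ratios of 0.760 and 0.836, with limits on both sides of 1, were found for clusters overlapping Rbfox2 (Mb as the nearest gene) and Spred2. Spred2 encodes an inhibitor of the Ras and ERK pathway. In the Spred2 cluster H2BK120ac was 0.0823 CPM in TD against 0.976 CPM in ED (ratio 0.0843, 0.00195 to 0.579), and 5 of 5 members were lower in TD.

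**Figure D3:**
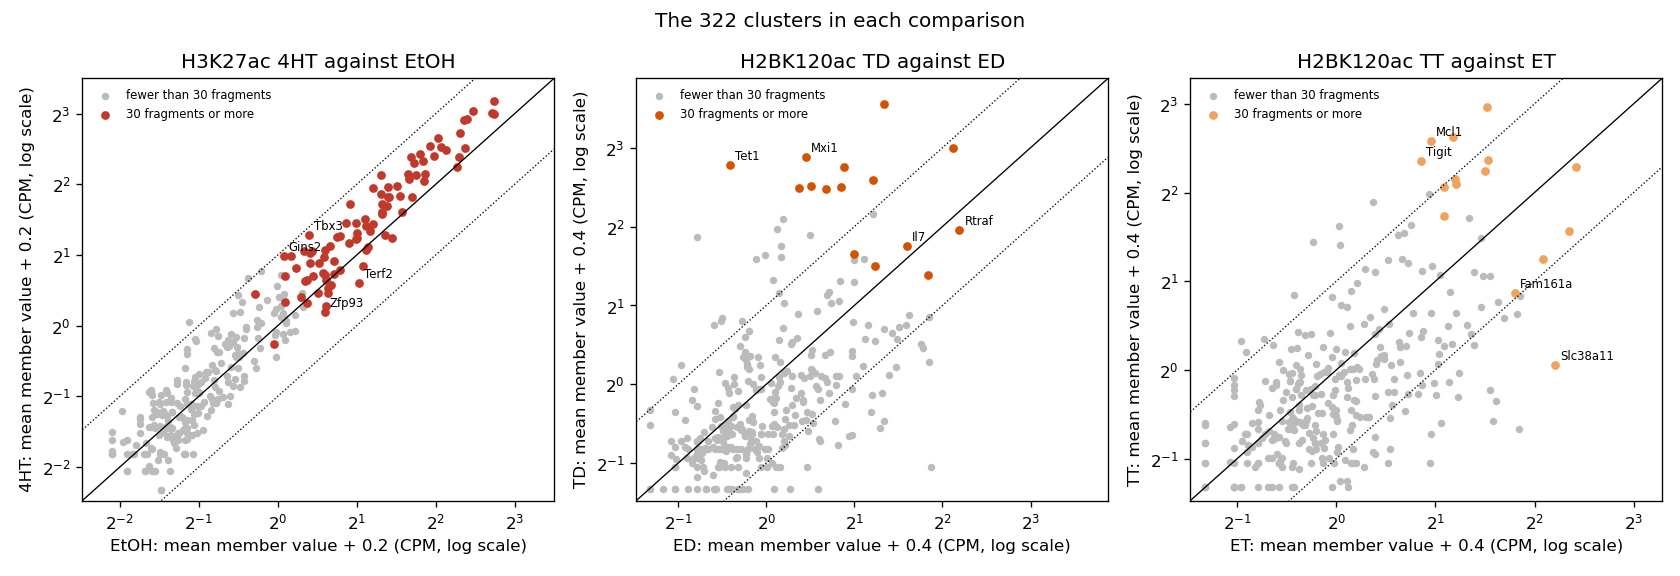
Mean member value of each of the 322 clusters plus the pseudocount (CPM, log scales), with 4HT, TD or TT on the vertical axis and EtOH, ED or ET on the horizontal axis. Coloured points have a mean pile-up of at least 30 fragments, the solid line marks equality and the dotted lines 2-fold. For H3K27ac most coloured points lie somewhat above the solid line, with a median log2 fold of 0.33. For H2BK120ac in TT against ET they spread to both sides of it, from -2.15 to 1.63 on the log2 scale.

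H2BK120ac folds of TD against ED were larger than H3K27ac folds of 4HT against EtOH, and went in both directions. These comparisons differ in depth, pseudocount and coverage filter, so the sizes of their folds are not measured alike. At the 111 well-covered members the median log2 fold, on the scale of log2(value + 0.4), was 0.93, below the 1.28 of all 2782 well-covered regions. The latter include regions that are not distal. Among the 1850 well-covered distal regions outside clusters the median was 1.01, with 50.1% past the 2-fold limit upward and 21.7% downward. Most of the gap to all regions was thus shared by distal regions outside clusters. In TD, 53 members were at least 2-fold higher (47.7%, background 55.1%) and 20 at least 2-fold lower (18.02%, background 18.5%). Centring lowers each fold by 1.28 and turns the split to 18 higher and 41 lower. Over all 2782 well-covered regions the centred counts were 802 higher and 979 lower. Over all 1672 members, mean values were close, 0.772 CPM in TD and 0.762 CPM in ED, while fewer members had coverage in TD. The excess of higher values in TD depended on the coverage filter and was not seen in the mean over all members. That filter averages TD, ED, TT and ET, so a member high in only some groups can pass. Lowering it to 3 fragments gave a median log2 fold of 0.28. Without a filter the median was -0.0582, with 238 members past the 2-fold limit upward and 431 downward. Whether well-covered members differ apart from this selection was not tested.

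The cluster over the start of Tet1, chr10:62883923-62887526, had the highest fold of TD over ED among the 15 clusters with enough coverage. The minimum averages TD and ED, so a cluster can pass through 1 of them. This cluster did, with 78.8 fragments in TD and 3.94 in ED, so its rank rests partly on the filter. Its mean was 6.49 CPM in TD, 0.351 in ED, 3.32 in TT and 0.890 in ET. The ratio was 18.5 (6.86 to 68.7) for TD against ED and 3.72 (1.83 to 8.35) for TT against ET, and every member was higher in TD and in TT. At chr10:62886892-62887003 H2BK120ac was 11.1 CPM in TD and 0 in ED, and 6.31 CPM in TT and 0.831 CPM in ET. The next region, chr10:62887070-62887526, which covers most of the promoter shown above, had 9.92 CPM in TD and 0 in ED, and 5.16 CPM in TT and 1.43 CPM in ET. H3K27ac in that region was 3.54 CPM in 4HT and 2.19 CPM in EtOH.

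Mxi1, 1700029H14Rik and Sash1 were nearest to the clusters that followed. Mxi1 encodes a MAX-binding antagonist of MYC. Its cluster, 25509 bp from the start, had 6.97 CPM in TD against 0.968 CPM in ED (ratio 7.20, 3.80 to 14.9) and little H3K27ac, 0.686 CPM in 4HT and 0.542 CPM in EtOH. At its best-covered member, chr19:53284191-53284466, H2BK120ac was 14.6 CPM in TD against 1.37 CPM in ED and 13.3 CPM in TT against 3.26 CPM in ET. The cluster overlapping 1700029H14Rik had the highest H2BK120ac mean in TD, 11.4 CPM, against 2.14 CPM in ED (ratio 5.33, 3.43 to 8.58). One of its members, chr8:13548711-13549408, had the highest H2BK120ac value of all members, 25.6 CPM in TD, against 4.62 CPM in ED, with 19.4 CPM in TT against 4.93 CPM in ET. The cluster overlapping Sash1, which encodes a scaffold protein, had 5.21 CPM in TD against 0.894 CPM in ED (ratio 5.83, 2.97 to 12.7). All these clusters were higher in TT than in ET as well, by ratios of 3.09 (1.88 to 5.32), 2.99 (1.92 to 4.70) and 2.03 (1.18 to 3.47).

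Among these 15 clusters the counting interval lay above 1 in 11 and below 1 in 0. Relative to the shift of 1.28 it lay wholly above in 7 and wholly below in 4. The 0 holds only for clusters that passed the minimum. Clusters nearest to Slc38a11, Pawr, Fam161a, Septin1 and Pop1 missed it, though their intervals lay below 1. Their ratios were 0.514, 0.457, 0.341, 0.321 and 0.492 in that order. Among the clusters with low ratios that passed, that nearest to Rtraf had 3.49 CPM in TD against 4.17 CPM in ED. Near Il7, an interleukin gene, the values were 2.97 CPM in TD and 2.62 CPM in ED, and near Zscan2 2.44 CPM in TD and 1.96 CPM in ED. The counting limits of these 3 ratios included 1.

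**Figure D4:**
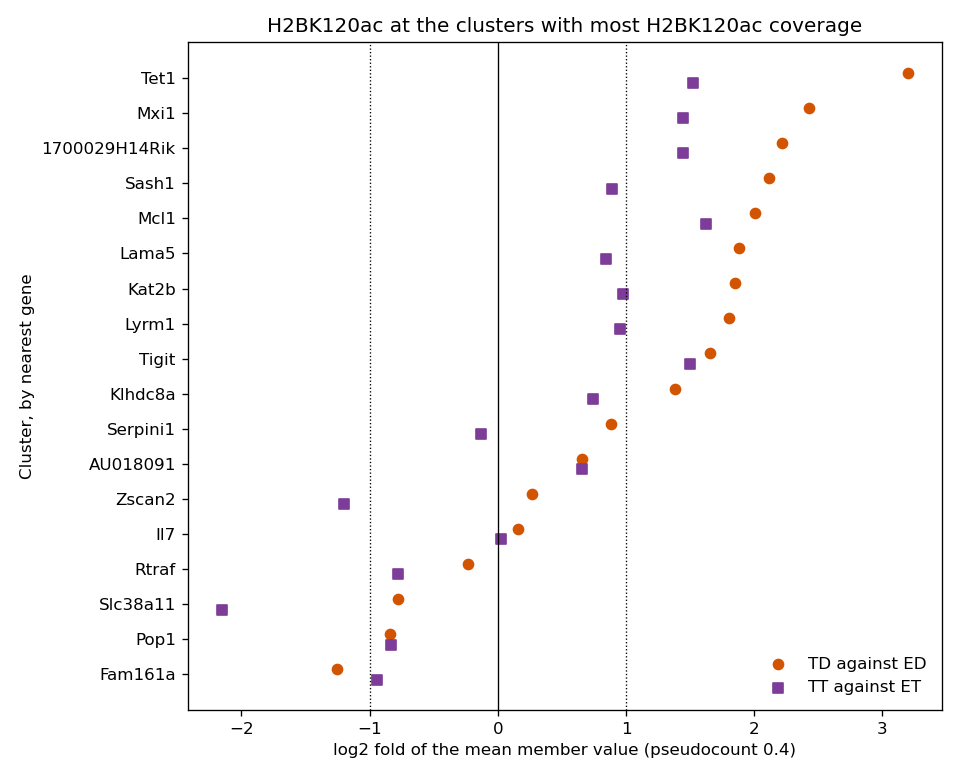
Log2 fold of the mean member H2BK120ac value (horizontal axis, pseudocount 0.4) for TD against ED (circles) and TT against ET (squares) at 18 clusters, named by nearest gene (vertical axis), whose pile-up averaged at least 30 fragments in either comparison. The solid line marks no difference and the dotted lines 2-fold; Tet1 stands highest for TD against ED at 3.20 and Slc38a11 lowest for TT against ET at -2.15.

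TT against ET gave a smaller median fold and clusters on both sides. At the 111 well-covered members the median log2 fold was 0.38, below the 0.96 of all well-covered regions. Distal regions outside clusters lay between them. Their median was 0.63 over 1850 well-covered regions, with 45.1% past the 2-fold limit upward and 25.9% downward. Part of the gap to all regions was thus shared by distal regions outside clusters. In TT, 37 members were at least 2-fold higher (33.3%, background 49.6%) and 18 at least 2-fold lower (16.2%, background 21.6%). Centring lowers each fold by 0.96 and gives 9 higher and 41 lower, beside 732 higher and 976 lower over all 2782 well-covered regions. Of the 15 clusters with enough coverage in this comparison, 10 had a counting interval above 1 and 4 below 1. Relative to the shift of 0.96, 2 lay wholly above and 5 wholly below. The minimum here averages TT and ET, so a cluster can pass through 1 of them.

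The cluster nearest to Mcl1, which encodes an anti-apoptotic BCL2 family protein, had the highest fold. It starts outside the authors' windows, with its middle 4725 bp from the gene's start. H2BK120ac averaged 5.57 CPM in TT against 1.54 CPM in ET (ratio 3.63, 2.13 to 6.67), and 5.31 CPM in TD against 1.02 CPM in ED (ratio 5.19, 2.82 to 11.3). All 5 members were higher in TT and in TD. They lay between 4.24 and 6.82 CPM in TT, against 0.976 to 2.25 CPM in ET. H3K27ac was also high here, 7.999 CPM in 4HT against 5.36 CPM in EtOH (ratio 1.49, 1.21 to 1.85).

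The cluster overlapping Zbtb20, with Tigit as the nearest gene, had H2BK120ac almost without H3K27ac. Its H2BK120ac mean was 4.73 CPM in TT against 1.41 CPM in ET (ratio 3.35, 1.98 to 5.87), and 5.28 CPM in TD against 1.41 CPM in ED. Its H3K27ac mean was 0.378 CPM in 4HT and 0.309 CPM in EtOH. At chr16:43574427-43574633 H2BK120ac was 12.1 CPM in TD, 2.67 in ED, 9.01 in TT and 2.73 in ET.

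At the other end, the cluster 69581 bp from Slc38a11, an amino acid transporter gene, had 0.638 CPM in TT against 4.21 CPM in ET (ratio 0.151, 0.0739 to 0.296). In TD it had 1.252 CPM against 2.44 CPM in ED (ratio 0.514, 0.285 to 0.893). Most of the difference lay in the last 3 of its 7 regions, while 6 of 7 were lower in TT than in ET and 5 of 7 lower in TD than in ED. At chr2:65437442-65437675 H2BK120ac was 0.768 CPM in TT against 10.4 CPM in ET, and 0.561 CPM in TD against 2.59 CPM in ED. At chr2:65436960-65437331 it was 0.540 CPM in TT against 10.1 CPM in ET, and 0.412 CPM in TD against 4.38 CPM in ED. H3K27ac in that region was present in both of its groups, 7.09 CPM in 4HT and 5.10 CPM in EtOH. The first region of the cluster, chr2:65429540-65429692, did not share the pattern, with 2.06 CPM in TT and 2.05 CPM in ET, and 5.06 CPM in TD and 2.38 CPM in ED.

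The clusters nearest to Fam161a, Pop1 and Rtraf were also lower in TT than in ET. Fam161a encodes a ciliary protein and Pop1 a subunit of RNase P. At Fam161a the mean was 1.42 CPM in TT against 3.09 CPM in ET (ratio 0.460, 0.262 to 0.804), at Pop1 1.98 CPM in TT against 3.86 CPM in ET (ratio 0.514, 0.302 to 0.876). At Rtraf it was 2.57 CPM in TT against 4.69 CPM in ET (ratio 0.548, 0.338 to 0.864). The Fam161a and Pop1 clusters were lower in TD than in ED too, with ratios of 0.341 (0.178 to 0.642) and 0.492 (0.259 to 0.971). H3K27ac in these clusters was not lower in 4HT, with 6.42, 5.09 and 7.78 CPM in 4HT against 4.76, 3.74 and 6.45 CPM in EtOH.

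**Figure D5:**
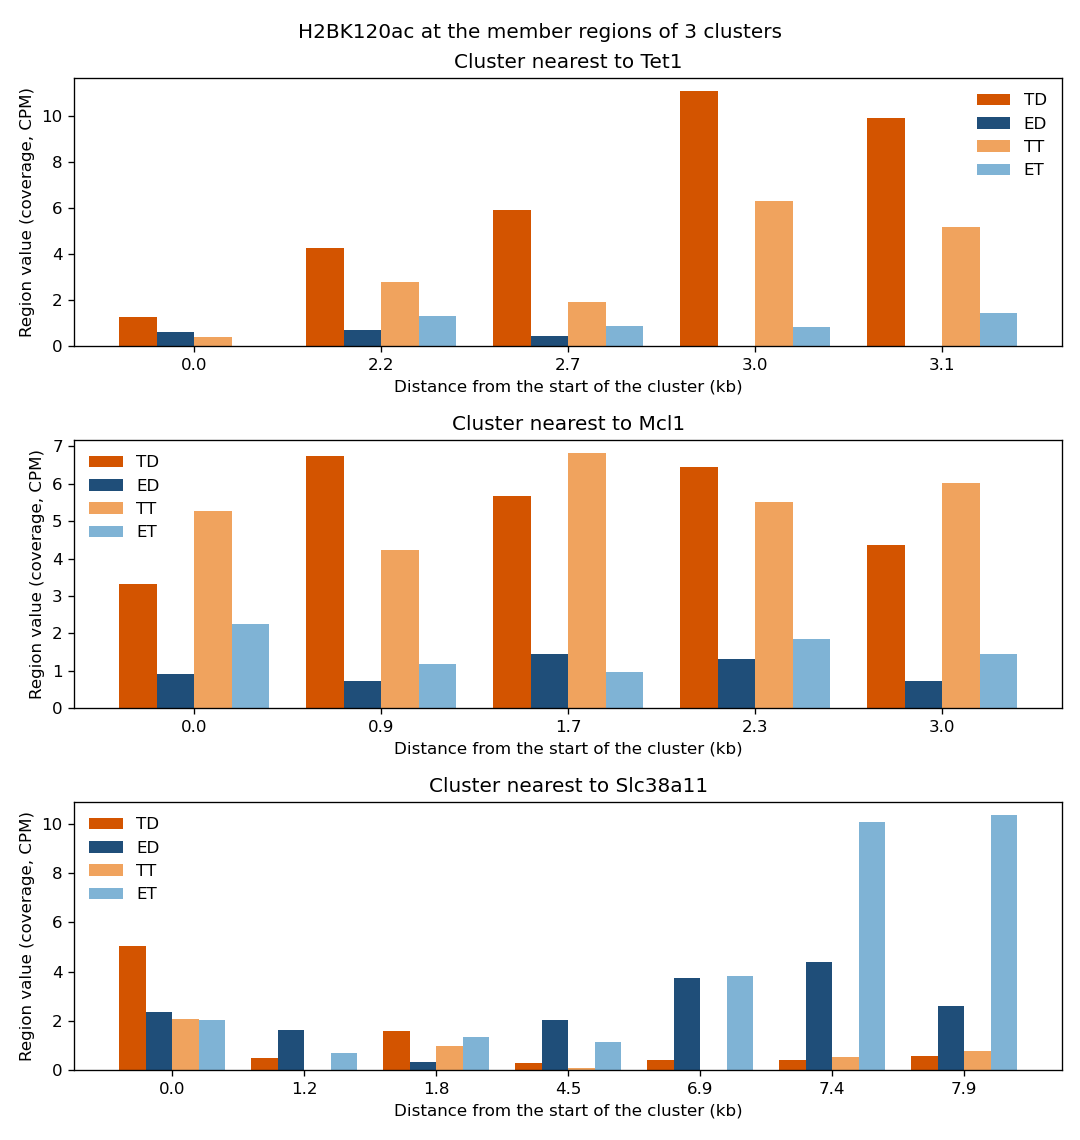
H2BK120ac coverage (CPM, vertical axes) in TD, ED, TT and ET at each member of the clusters nearest to Tet1, Mcl1 and Slc38a11, placed by distance from the start of the cluster in kb (horizontal axes). Each bar is the value of 1 merged column; TD and TT are high across the Mcl1 cluster, while ET reaches 10.1 and 10.4 CPM at the last 2 regions near Slc38a11 against 0.540 and 0.768 CPM in TT.

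The groups whose codes share their first letter differed less. For ET against ED the median log2 fold at the 111 members was 0.28 (all regions 0.17), with 15 members at least 2-fold higher in ET (13.5%, background 10.4%) and 3 at least 2-fold lower (2.70%, background 3.85%). For TT against TD it was -0.27 (all regions -0.17), with 5 at least 2-fold higher in TT (4.5045%, background 2.48%) and 8 at least 2-fold lower (7.21%, background 5.75%). As a description over the 322 clusters, Spearman's rho of the mean member values was 0.85 between TT and TD and 0.80 between ET and ED, but 0.59 between TD and ED and 0.61 between TT and ET. It was 0.93 between 4HT and EtOH, and 0.75 between ED and the H3K27ac of EtOH. These points share their libraries and the depth of each region, and no p-value is given.

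Of 31 genes of naive and general pluripotency, 5 (16.1%) were the nearest gene of a cluster, with 7 clusters in all: Klf4, Klf5, Tbx3, Nanog and Myc. Over all 21488 protein-coding genes with a start the share was 1.43%. Klf4 encodes a Krüppel-like factor of the naive network. Its cluster, 54136 bp from the start, kept 4 members and ranked among the 5 highest in EtOH, with 7.41 CPM in 4HT against 5.08 CPM in EtOH (ratio 1.46, 1.14 to 1.88). H2BK120ac there was 4.07 CPM in TD against 1.91 CPM in ED (ratio 2.13, 1.21 to 4.09), and 2.88 CPM in TT against 2.13 CPM in ET (ratio 1.35, 0.740 to 2.60). The member chr4:55475343-55475849 was the strongest, with 10.7 CPM of H3K27ac in 4HT and 7.09 CPM in EtOH.

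Nanog, the homeobox factor of pluripotency, had clusters at 19955 bp and 34887 bp, both overlapping Slc2a3, a glucose transporter gene. They had 0.603 and 1.35 CPM of H3K27ac in 4HT against 0.657 and 1.07 CPM in EtOH, with ratio limits on both sides of 1. The clusters nearest to Myc, a growth regulator, lay 61070 and 105169 bp from its start and had 0.434 and 0.859 CPM in 4HT against 0.335 and 0.867 CPM in EtOH. The Klf5 cluster had 0.264 CPM in 4HT and 0.251 CPM in EtOH, close to the value of 1 fragment. Of 15 genes of the formative and primed states only Etv5, an ETS factor, had a cluster, with 5.56 CPM in 4HT against 3.99 CPM in EtOH (ratio 1.39, 1.08 to 1.80). Of 15 p53 target genes and 8 forkhead genes, Foxd3 among them, 0 were the nearest gene of a cluster, and of 11 AP-1 and immediate early genes only Myc was.

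The clusters with the most H3K27ac in EtOH were those nearest to Serpini1, Rtraf, Septin1, Mcl1 and Klf4. Serpini1 encodes a serine protease inhibitor and Septin1 a cytoskeletal GTPase. Near Serpini1 H3K27ac was 8.85 CPM in 4HT against 6.502 CPM in EtOH, and near Septin1 7.89 CPM in 4HT against 6.34 CPM in EtOH. They differed in H2BK120ac. The Serpini1 cluster had 7.60 CPM in TD against 3.93 CPM in ED (ratio 1.93, 1.29 to 3.01), while the Septin1 cluster had 0.972 CPM in TD against 3.03 CPM in ED (ratio 0.321, 0.154 to 0.646).

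The 12 clusters with 7 or 8 members ranged widely in level. Their mean H3K27ac ran from 0.0889 to 7.29 CPM in 4HT (median 0.586) and from 0.0565 to 4.92 CPM in EtOH (median 0.694). Near Pawr, a pro-apoptotic gene, H3K27ac was 3.70 CPM in 4HT against 2.43 CPM in EtOH (ratio 1.52, 1.16 to 1.98) and H2BK120ac 1.09 CPM in TD against 2.39 CPM in ED (ratio 0.457, 0.252 to 0.822). Near Tgif1, which encodes a homeobox repressor, H3K27ac was 1.16 CPM in 4HT against 0.618 CPM in EtOH (ratio 1.88, 1.12 to 3.23). The clusters near Spp2 and overlapping Lmo7 had 0.639 and 0.533 CPM in 4HT against 0.769 and 0.781 CPM in EtOH. The cluster near Rack1, the gene of a ribosomal scaffold protein, had 0.171 CPM in 4HT and 0.128 CPM in EtOH, less than a single fragment per region.

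By position, 183 clusters (56.8%) overlapped the span of a protein-coding gene. The middle of 93 clusters lay within 20 kb of a start, and 69 lay more than 100 kb from any. H3K27ac cluster means averaged 1.15 CPM in 4HT within 20 kb and 1.04 CPM beyond 100 kb, against 0.943 and 0.829 CPM in EtOH. For H2BK120ac, the median cluster within 20 kb had 0.333 CPM in TD against 0.471 CPM in ED, and beyond 100 kb 0.289 CPM in TD against 0.689 CPM in ED. The means gave another order near starts, 0.889 CPM in TD against 0.658 CPM in ED, but not beyond 100 kb, with 0.597 CPM in TD against 0.882 CPM in ED. Chromosome 6 held 37 clusters, 11.5% of them, against 6.48% of the distal regions. The Y chromosome held 2 clusters with only 18 distal regions, and chromosome 19 held 1.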

How the data were processed

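The authors deposited coverage signal per region, given as CPM in the table names, with 1 merged column per group per the file headers. The build is mm10, per the submitters' processing notes, and no source used here names the aligner or the tool that made the coverage. Missing values were counted as 0. Bases without coverage appear to be left out of a region's mean, since no value lies below that of 1 fragment (0.25 of it in H2BK120ac), which raises sparse values. A further 16 value columns, of IgG, match no sample and were not used. The limma fit planned for separate replicates was not possible on merged columns, so no p-value is given.

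Folds were taken on log2(value + pseudocount), with 0.2 for H3K27ac and 0.4 for H2BK120ac, the 25th percentile of positive values, which understates the change of low regions. A cluster's value is the mean over its members. Genes are named by the protein-coding start nearest to the middle of a cluster (RefSeq, GRCm38.p6), with the strand from the promoter table or, for 3997 of 21488 genes, from the nearest start window. Members, gene lists and rules were chosen with earlier results of these data known. The named clusters are the 8 with most members, the 4 highest and 4 lowest folds in 4HT against EtOH, TD against ED and TT against ET among clusters averaging at least 30 fragments, the 5 highest in EtOH, and those nearest to listed genes; 1 of them is not reported here. The size rule was tested on simulated data. Alternatives changed the run rule, the filter, the pseudocount, the missing values and the scaling. Python 3.11.15, pandas 2.3.3, numpy 2.4.6, scipy 1.17.1 and matplotlib 3.10.9 were used.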

Additional observations from a re-analysis of the deposited data

Results flagged for a closer look

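At 5 named clusters the H2BK120ac fold had one sign for TD over ED and the other for TT over ET. With 1 merged column per group, whether the comparisons differ was not tested. Near Zscan2, a zinc finger gene, the log2 fold was 0.27 (TD over ED) and -1.20 (TT over ET), from 2.44 CPM in TD, 1.96 in ED, 1.14 in TT and 3.13 in ET. The counting interval of the ratio included 1 in TD against ED (0.752 to 2.21) and lay below 1 in TT against ET (0.201 to 0.676). Near Serpini1 the log2 folds were 0.88 and -0.13, and the interval lay above 1 in TD against ED (1.29 to 3.01) and included 1 in TT against ET (0.572 to 1.38). Near Erich3 the folds were -0.94 and 0.44, from 0.126 CPM in TD, 0.610 in ED, 0.489 in TT and 0.257 in ET, about 1 fragment per region or less. The interval lay below 1 in TD against ED (0.0197 to 0.868) and included 1 in TT against ET (0.499 to 8.45). At the cluster overlapping Etv5 the folds were 0.30 and -0.56, and near Zfp93 0.65 and -0.0231, with intervals that included 1 in both comparisons.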

How the results depend on the processing

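No paired analysis was possible because each group has 1 merged column, so no replicate was left out either. Runs of 10 or more regions gave no value, since the longest held 8. Values below give median log2 folds and then members at least 2-fold higher and lower.

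Median centring turned TD against ED to -0.36 (18 higher, 41 lower) and TT against ET to -0.59 (9 and 41). It gave 0.0169 for 4HT against EtOH (19 and 18) and -0.10 for TT against TD, and -0.26 for the Gins2 cluster in TD against ED. Quantile normalization gave 0.0137 for 4HT against EtOH (21 and 17), 0.45 for TD against ED and -0.10 for TT against TD, with 28 members lower in TT than in ET. Without a filter on low values the medians were 0.14 for 4HT against EtOH (199 and 94), -0.0582 for TD against ED (238 and 431) and -0.0546 for TT against ET (229 and 403), and 0 for ET against ED and TT against TD. At 3 fragments they were 0.28 for TD against ED (60 lower), -0.0197 for TT against ET (58 and 63) and -0.13 for TT against TD. Gaps of at most 1 kb, with fewer members, left 11 and 3 in 4HT against EtOH, 21 and 5 in TD against ED, and 17 and 5 in TT against ET, whose median was 0.86. A pseudocount 2 times as large left 4 members lower in 4HT. Apart from the smaller or larger sets compared, the cause was not tested. Removing wide regions before forming runs, and leaving out regions without coverage, left each of the 11 values close to the one reported. Of the values for single clusters under the scaling and pseudocount alternatives, 192 stayed close, 44 moved and 1 reversed.

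Depth limits single regions: 1178 members were well covered for neither mark.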

Other observations

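When the clusters were split by their H3K27ac level in EtOH, the marks rose together, as a description only. The 108 clusters highest in EtOH averaged 1.496 CPM of H2BK120ac in TD, 1.33 in ED, 1.27 in TT and 1.46 in ET. The 107 lowest averaged 0.223 CPM in TD, 0.314 in ED, 0.238 in TT and 0.282 in ET. The cluster nearest to Kat2b, which holds a start of that gene, was not ranked among the named clusters. It had 3.53 CPM of H2BK120ac in TD against 0.691 CPM in ED (ratio 5.11, 2.31 to 12.2) and 3.77 CPM in TT against 1.72 CPM in ET (ratio 2.19, 1.26 to 3.99). Its members were higher in TD in 5 of 5 cases and in TT in 4 of 5. In TD, 23 clusters had no covered member, against 4 in ED, and in TT 18, against 9 in ET. Over all 127646 regions coverage was likewise less frequent in TD and TT (51.8% and 52.5%) than in ED and ET (61.3% in each).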
